A study of Drosophila melanogaster with 8 samples.

Results

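The genes described here encode subunits of the proteasome and heat shock chaperones in wing imaginal discs, pouches of larval epithelium from which wing and dorsal thorax develop. They are the genes of the authors' deposited list of transcripts with a fold of at least 1.5 between genotypes whose symbol, or current symbol by synonym, begins with Rpn, Rpt, Prosalpha, Prosbeta or Hsp and a digit, with the co-chaperone gene stv added. This gave 36 genes with 37 transcripts, of 3850 listed genes with 4379 transcripts. The members were thus chosen by the same difference between genotypes that is described below, so their differences are a description; calls from the fit over all features are counted beside the share of all features called, and nothing is read from them. The listed fold of members ran from 1.52 for Rpt1, just inside the threshold, to 11.3 for Hsp67Ba in the authors' deposited table. The 12258 transcripts outside that list carry no name, and the largest fold among them was 1.54, so a subunit not found in the list lay under that fold, was not measured, or stands in the list under a symbol that could not be resolved. An additional listed symbol, Bc, is a synonym of several genes including Hsp70Bc, could not be assigned and was not used.

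RNA came from wing discs of larvae in the third instar, either wildtype Oregon R or homozygous for a mutation of BEAF-32, a chromatin protein that binds boundary (insulator) elements. The mutant larvae were matched to the wildtype in age, both genotypes carry the same strain label, and the mutant allele and the number of larvae per sample were not stated in the labels. Each genotype had 4 one-colour arrays, with titles numbered 1_1, 1_2, 2_1 and 2_2, and a log2 level per transcript and array. Arrays of a genotype with the same first number correlated at 0.9977 to 0.9986 across transcripts and were averaged, which left 2 replicates per genotype, called replicate 1 and replicate 2 below. Arrays of a genotype with different first numbers correlated at 0.9662 to 0.97 in wildtype and 0.9852 to 0.987 in the mutant. Between genotypes the correlation was 0.9023 to 0.9327. The design text counts 2 biological and 2 experimental replicates without saying which number of the title is which, and the labels do not say whether replicates came from separate animals. Means are ± SD with n = 2, and their spread may in part be technical. With arrays averaged by the second number instead, 12365 features were called in the test used below, against 1169. Standard errors (SE) are those of the limma fit. BEAF-32 itself read 11.94 on wildtype array 1_2, between 10.09 and 10.28 on the other wildtype arrays and between 8.41 and 8.49 on the mutant arrays (log2 difference -2.17, SE 0.30). That difference includes the outlying wildtype array 1_2, which makes it larger. In bulk RNA, fewer cells of a type and less RNA per cell cannot be told apart.

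The proteasome is the protease that degrades proteins tagged with ubiquitin. Its core particle is a barrel of stacked rings of alpha and beta subunits with the catalytic sites inside, carried by the subunits beta 1, beta 2 and beta 5. A regulatory particle caps the barrel. Its base contains a ring of ATPases (Rpt subunits) that unfolds substrates together with scaffold and ubiquitin-binding Rpn subunits, and its lid contains the deubiquitinase that removes the tag. Cells make the subunits in set proportions and tend to regulate their genes together. Heat shock proteins keep unfolded proteins soluble or refold them, and small heat shock proteins, in flies clustered at one place on the left arm of the third chromosome, are induced by heat and, for several of them, by the moulting hormone ecdysone.

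Proteasome subunit genes were lower in the mutant in every case that was listed. Of 33 known subunits of core, base and lid, 27 were in the list, and all 27 were below wildtype, with a median log2 difference of -0.88 (1.84-fold) and a range from -1.66 to -0.61. The median over all 16108 features tested was 0.06, and 49.6% of the listed genes of the array were below wildtype. Among the 1909 listed genes that were lower, chosen by the same fold threshold, the median was -0.925. The subunits thus did not differ more than a typical lower gene of the list. On none of the 27 genes did the 4 mutant arrays overlap the 4 wildtype arrays. Of all features, 23.6% had every mutant array below every wildtype array. The fold threshold that chose the members makes such a gap likely, and 1829 of the 1909 lower listed genes had it. With limma, a test fitted across all features, 17 of the 27 were called (adjusted p under 0.05), all lower, against 4.46% of all features called lower, and since the same contrast chose the members nothing is read from that count. The count was 0 without mutant replicate 1, when 0 features of the array were called, and 0 without mutant replicate 2, when 16 features were called (2022 and 2084 features, among them 24 and 20 subunit genes, had an unadjusted limma p under 0.05); it was 10 without wildtype replicate 1 and 25 without wildtype replicate 2. The difference was 1.83 times (Rpt1) to 19 times the larger difference between the replicates of a genotype. The fold threshold that chose the members favours a high ratio, so nothing is read from these ratios. The 6 subunits outside the list were Prosalpha1, Prosalpha2 and Prosbeta7 of the core, Rpn1 of the base, and Rpn6 and Sem1 of the lid.

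**Figure D1:**
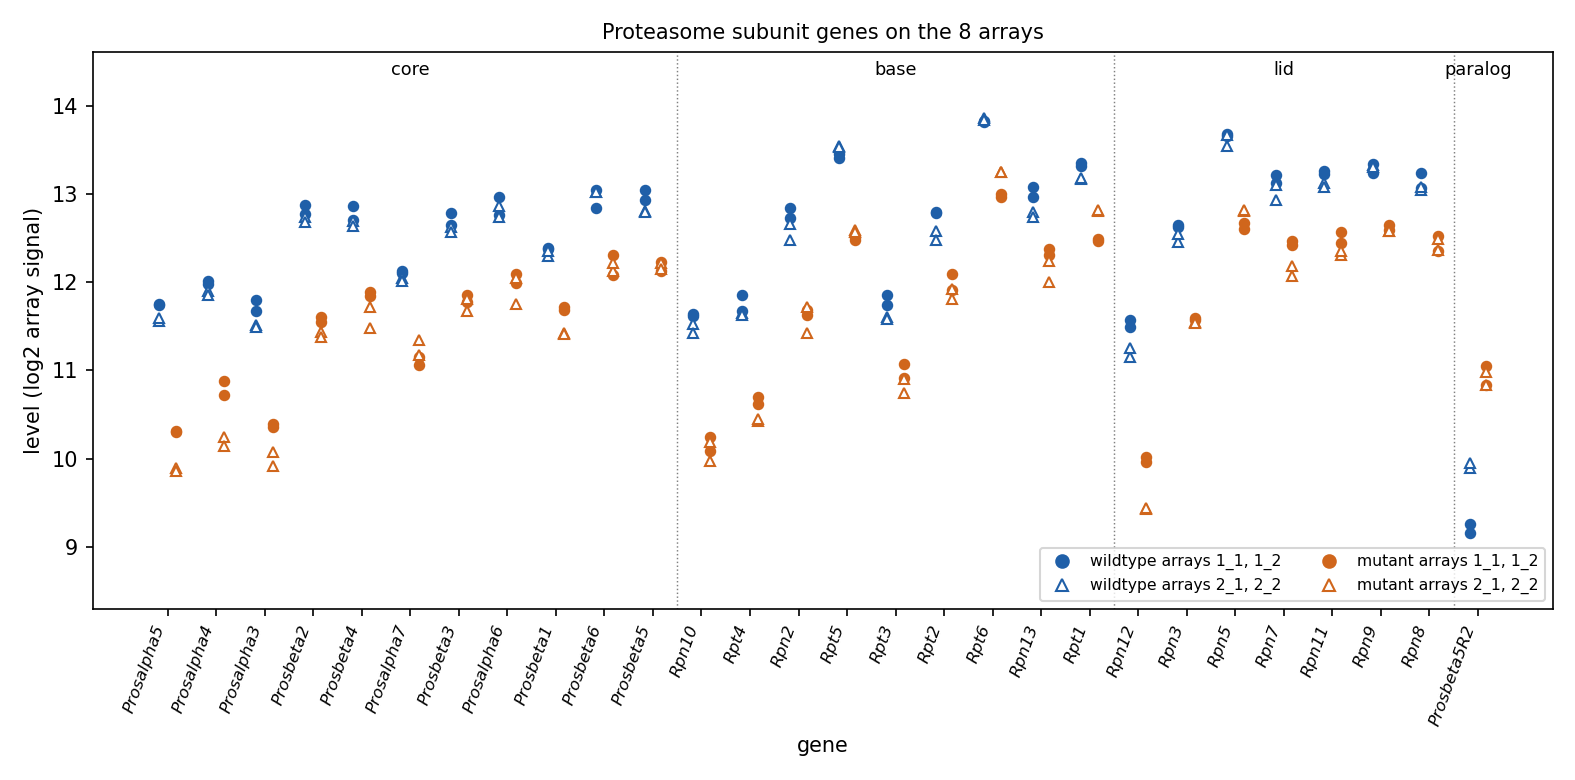
Level (log2 array signal, y axis) of each listed proteasome subunit gene and of the paralog Prosbeta5R2 (x axis, grouped by place in the complex) on the 4 wildtype (blue) and 4 mutant (orange) arrays; filled circles are replicate 1 and open triangles replicate 2. In all 27 core, base and lid genes the mutant arrays lie below the wildtype arrays, and Prosbeta5R2 runs the other way.

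In the core particle 11 of 14 subunits were listed, with a median log2 difference of -0.89 and a range from -1.57 to -0.72. Array values below are given in the order 1_1, 1_2, 2_1 and 2_2. Prosalpha5, a subunit of the outer alpha ring, read 11.74, 11.75, 11.56 and 11.59 on the wildtype arrays and 10.32, 10.30, 9.89 and 9.86 on the mutant arrays, a log2 difference of -1.57 (SE 0.20, 2.96-fold). Prosalpha4, another alpha subunit, read 12.02, 11.98, 11.90 and 11.86 in wildtype and 10.72, 10.89, 10.24 and 10.14 in the mutant (-1.44, SE 0.24). The wildtype arrays of both genes lay close together, whereas mutant replicate 2 was lower than mutant replicate 1, by 0.43 for Prosalpha5 and 0.61 for Prosalpha4. At the other end of the core was Prosbeta5, which carries the chymotrypsin-like site, with 13.05, 12.94, 12.81 and 12.79 in wildtype and 12.12, 12.23, 12.21 and 12.15 in the mutant (-0.72, SE 0.13, 1.65-fold). Prosbeta6, a beta subunit without a catalytic site, read 13.05, 12.84, 13.02 and 13.03 and 12.31, 12.09, 12.13 and 12.22 (-0.80, SE 0.12). The highest mutant array lay below the lowest wildtype array by 0.57 for Prosbeta5 and 0.53 for Prosbeta6.

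Within the core, the 5 listed alpha subunits had a median log2 difference of -1.43 and the 6 listed beta subunits of -0.84, with ranges that overlapped (-1.57 to -0.86 and -1.27 to -0.72). Of the 3 catalytic subunits, Prosbeta2, which carries the trypsin-like site, differed by -1.27 (from 12.77 ± 0.08 to 11.49 ± 0.12), Prosbeta1, with the caspase-like site, by -0.80 and Prosbeta5 by -0.72. Prosalpha7 was listed with a pair of transcripts. Its brighter transcript differed by -0.89 and its dimmer one by -1.36, and in the dimmer one wildtype replicate 1 read 10.89 and 10.87 against 10.21 and 10.12 in replicate 2. The remaining core genes were Prosalpha3 at -1.43, Prosbeta4 at -0.99, Prosbeta3 at -0.88 and Prosalpha6 at -0.86.

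Of 10 base subunits 9 were listed, among them all 6 ATPases, with a median log2 difference of -0.79. The largest difference was in Rpn10, a receptor for ubiquitin chains, which read 11.64, 11.61, 11.52 and 11.43 in wildtype and 10.09, 10.25, 10.19 and 9.98 in the mutant (-1.43, SE 0.13, 2.69-fold). Next came the ATPase gene Rpt4, at 11.86, 11.67, 11.65 and 11.63 against 10.70, 10.62, 10.43 and 10.45 (-1.15, SE 0.14). In both genes the lowest wildtype array stood about a log2 unit above the highest mutant array (1.18 for Rpn10 and 0.93 for Rpt4). The smallest difference of all 27 subunits was in the ATPase gene Rpt1, with 13.36, 13.32, 13.17 and 13.18 in wildtype and 12.47, 12.49, 12.80 and 12.82 in the mutant (-0.61, SE 0.17, 1.52-fold). Here mutant replicate 2 was the higher one, by 0.33, and the gap between the genotypes was 0.34. Rpn13, another ubiquitin receptor and the docking site of a deubiquitinase, read 13.09, 12.97, 12.79 and 12.74 and 12.31, 12.38, 12.001 and 12.24 (-0.66, SE 0.16), so that these receptors lay near opposite ends of the base. The 6 ATPase genes ranged from -1.15 to -0.61 with a median of -0.76. Besides Rpt4 and Rpt1 they were Rpt5 at -0.95, Rpt3 at -0.79, Rpt2 at -0.73 and Rpt6 at -0.72. The scaffold subunit gene Rpn2 differed by -1.06 (from 12.68 ± 0.15 to 11.61 ± 0.06).

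Of 9 lid subunits 7 were listed, with a median log2 difference of -0.81. Rpn12, which is added last when the lid is assembled in yeast, had the largest difference of any subunit, at 11.57, 11.49, 11.16 and 11.26 in wildtype and 10.02, 9.96, 9.43 and 9.44 in the mutant (-1.66, SE 0.25, 3.15-fold). In Rpn3, a structural lid subunit, the values were 12.65, 12.63, 12.45 and 12.54 and 11.59, 11.57, 11.55 and 11.54 (-1.01, SE 0.12). The replicates of Rpn12 were apart in both genotypes, with replicate 1 higher by 0.33 in wildtype and 0.55 in the mutant, while the 4 mutant arrays of Rpn3 lay within 0.06 of each other. Rpn8, the partner of the deubiquitinase subunit, read 13.24, 13.07, 13.05 and 13.08 in wildtype and 12.35, 12.52, 12.49 and 12.37 in the mutant (-0.67, SE 0.12). Rpn9, a scaffold subunit of the lid, read 13.24, 13.34, 13.33 and 13.30 and 12.59, 12.65, 12.59 and 12.58 (-0.70, SE 0.11). Its replicates differed by no more than 0.04, so this small difference was 19 times the spread between replicates. The deubiquitinase gene Rpn11 differed by -0.76, Rpn5 by -0.91 and Rpn7 by -0.81.

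The subunits were therefore lower by different amounts: 12 of the 27 lay between 1.5-fold and 1.8-fold, 10 between 1.8-fold and 2.5-fold, and 5 above that (Prosalpha3, Prosalpha4, Prosalpha5, Rpn10 and Rpn12). The ranges of core, base and lid overlapped and their medians lay between -0.89 and -0.79. Because genes under 1.5-fold were not named, these medians leave out any subunit that differed less. The 27 genes are spread over the chromosome arms, with 4 on X, 4 on 2L, 8 on 2R, 4 on 3L and 7 on 3R, and no subunit gene had another member as its immediate protein-coding neighbour in the RefSeq gene order (assembly Release 6 plus ISO1 MT).

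**Figure D2:**
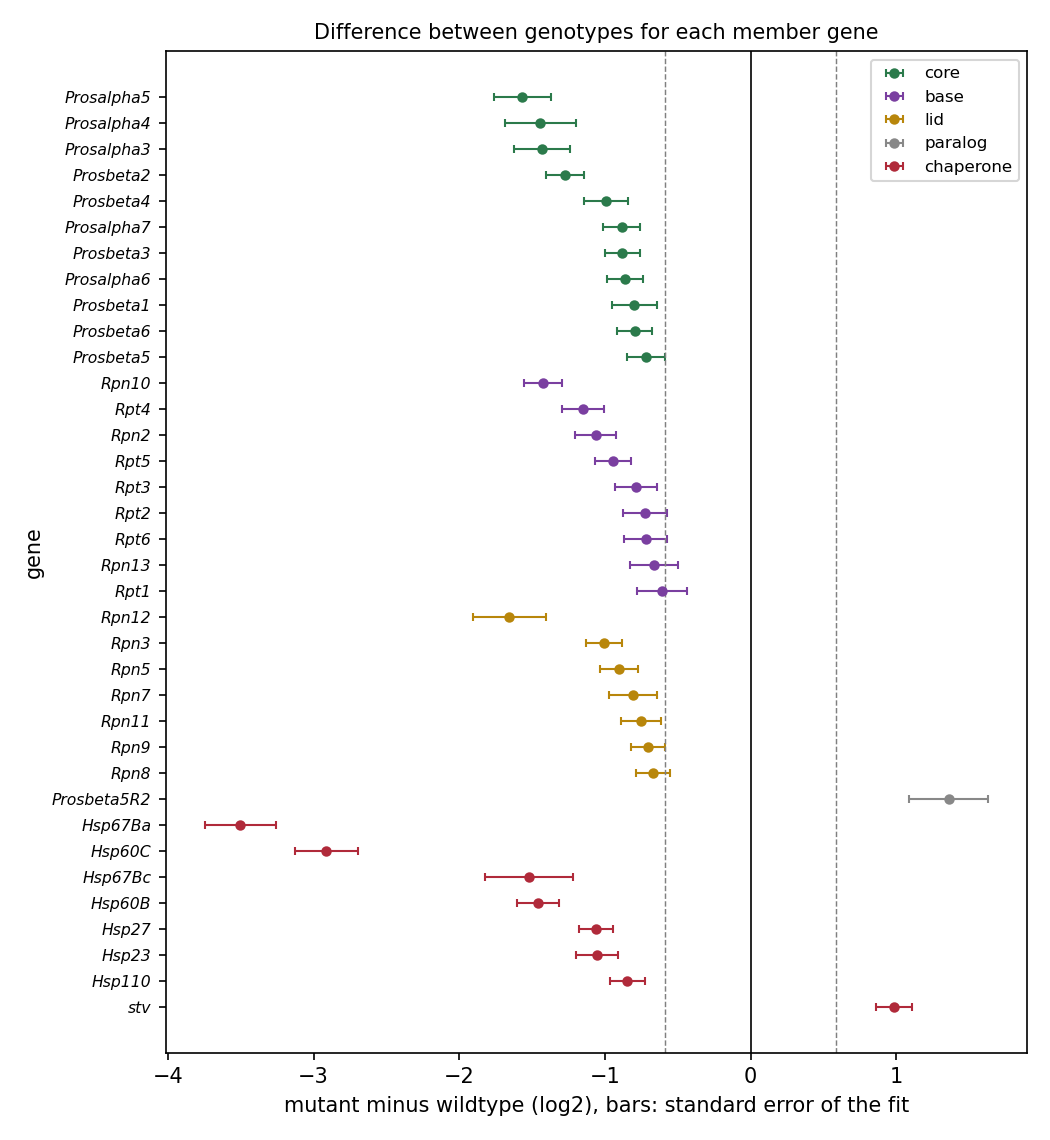
Mutant minus wildtype difference (log2, x axis) of each of the 36 genes (y axis), coloured by role, with bars for the standard error of the fit; dashed lines mark the 1.5-fold threshold that chose the genes. The 27 subunits lie between -1.66 and -0.61, the chaperones reach -3.50, and Prosbeta5R2 and stv are the genes to the right of 0.

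Prosbeta5R2, a duplicate of the catalytic subunit gene Prosbeta5 in a family of duplicated fly subunit genes that are mostly testis-biased, was the proteasome-related member that was higher in the mutant. It read 9.16, 9.26, 9.90 and 9.95 on the wildtype arrays and 11.05, 10.84, 10.84 and 10.98 on the mutant arrays (1.36, SE 0.27, 2.57-fold). The groups did not overlap, but wildtype replicates differed from each other by 0.71, the most in wildtype among the 36 genes, while the mutant replicates were within 0.04. The difference between genotypes was 1.91 times that replicate difference, and Prosbeta5R2 was not among the features that limma called higher, 2.79% of all. Of 7 testis markers 3 were listed, and these were lower in the mutant, with a summed level (log2 of the sum on the linear scale) of 11.43 to 11.97 on wildtype and 10.38 to 10.82 on mutant arrays.

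Among the 8 chaperone genes 7 were lower in the mutant and 1, stv, was higher, and the differences were wider than those of the subunits, from -3.50 to 0.98 with a median of -1.26. None of the 8 overlapped between genotypes. As given above, 23.6% of all features had every mutant array below wildtype, and 26.1% had every mutant array above it. The fold threshold makes such gaps likely here too. limma called 6 of them lower and 1 higher, against 4.46% of all features called lower and 2.79% called higher (0 of the 8 without mutant replicate 1 or without mutant replicate 2), and Hsp67Bc was not called, counts from which nothing is read for the reason given above. Of the 7 lower genes 4 encode small heat shock proteins, and their median was -1.29.

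Hsp67Ba, a small heat shock protein gene, had the largest difference of all 36 genes. It read 12.24, 12.32, 12.10 and 12.20 in wildtype and 9.01, 9.03, 8.52 and 8.29 in the mutant (-3.50, SE 0.24, 11.3-fold). The wildtype arrays lay within 0.22 of each other, and mutant replicate 2 was below mutant replicate 1 by 0.61. Hsp67Bc, a small heat shock protein that acts with the product of stv in autophagy, read 10.03, 10.19, 10.23 and 10.48 and 9.18, 9.02, 8.23 and 8.42 (-1.52, SE 0.30). Its mutant replicates were 0.77 apart, so the difference between genotypes was 1.97 times the replicate difference. Hsp27, whose product protects against heat and extends life span when overexpressed in flies, read 14.57, 14.51, 14.62 and 14.59 in wildtype and 13.50, 13.56, 13.55 and 13.44 in the mutant (-1.06, SE 0.12). Hsp23, a small heat shock gene beside it, read 14.53, 14.57, 14.85 and 14.78 and 13.61, 13.65, 13.64 and 13.60 (-1.06, SE 0.15). These neighbouring genes thus had almost the same difference, and the difference was 16.1 times the larger replicate difference for Hsp27 and 4.01 times for Hsp23. In the RefSeq order Hsp67Ba, Hsp23 and Hsp27 stand next to each other, and Hsp67Bc is separated from them by 4 genes (CG4456, Hsp22, CG4461 and Hsp26), none of which was listed.

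Both listed members of the Hsp60 family, mitochondrial-type chaperonins, were lower. Hsp60C, which in flies is needed for tracheal development and sperm formation, read 12.14, 12.09, 11.69 and 11.54 in wildtype and 9.05, 9.01, 8.80 and 8.95 in the mutant (-2.91, SE 0.21, 7.52-fold). Hsp60B, which is needed in the male germ line, read 11.46, 11.39, 11.21 and 11.12 and 9.85, 9.81, 9.81 and 9.88 (-1.46, SE 0.14). In both, wildtype replicate 1 was above replicate 2 on every array, by means of 0.50 and 0.26, and the mutant arrays lay together. The testis markers listed were lower in the same mutant samples, as given above, and their part in these differences was not tested. Of 6 genes taken as tracheal 4 were listed, 3 higher and 1 lower in the mutant. Their summed level was 13.79 to 13.92 in wildtype and 15.09 to 15.16 in the mutant. Within this list bnl was higher by 2.94, serp by 1.33 and verm by 1.31, and dys was lower by 1.70. The sum includes bnl, which encodes a ligand that acts on tracheal cells and is not a marker of them. The part of tracheal cells in the difference of Hsp60C was not tested.

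The other chaperone members act on Hsp70. Hsp110, a nucleotide exchange factor that restarts the Hsp70 cycle and stands in the file as Hsc70Cb, read 13.62, 13.60, 13.56 and 13.46 in wildtype and 12.70, 12.65, 12.76 and 12.73 in the mutant (-0.85, SE 0.12, 1.8-fold). stv (starvin), a BAG-domain co-chaperone that directs damaged muscle proteins to autophagy with Hsp70 and small heat shock proteins, read 13.24, 13.23, 13.36 and 13.25 and 14.29, 14.34, 14.14 and 14.23 (0.98, SE 0.12, 1.97-fold). Every mutant array of stv was above every wildtype array by at least 0.79, while its partner Hsp67Bc lay the other way by at least 0.85. stv and Prosbeta5R2 were the members that were higher in the mutant.

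**Figure D3:**
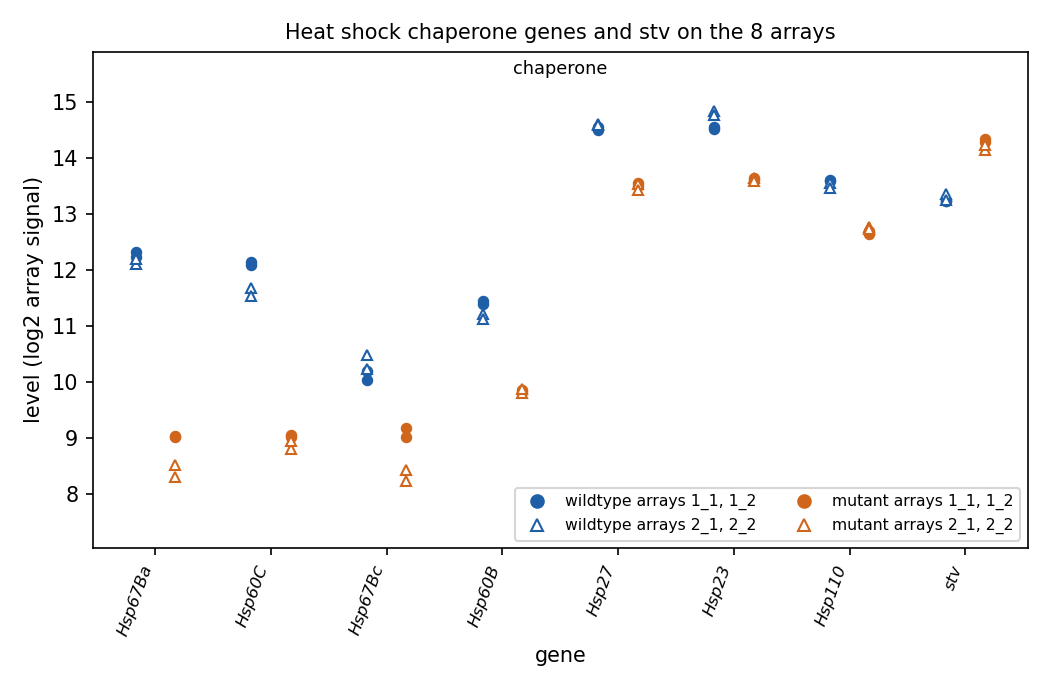
Level (log2 array signal, y axis) of the 8 chaperone genes (x axis) on the 4 wildtype (blue) and 4 mutant (orange) arrays; filled circles are replicate 1 and open triangles replicate 2. The gap between genotypes is 3.07 for Hsp67Ba and 0.70 for Hsp110, and stv is the gene with mutant arrays on top.

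Differences between replicates of the same genotype were not used to choose the members. In wildtype, replicate 1 was above replicate 2 in 23 of the 27 subunit genes, with a median difference of 0.13, against 53.4% of all features. Wildtype replicate 1 had a wider distribution, with upper quartiles of 11.29 and 11.31 against 11.13 to 11.18 on the other arrays. Among the 5330 features at or above the mean of the dimmest subunit gene, 72.3% were higher in replicate 1, with a median difference of 0.13, the same to that precision as in the subunit genes. In the mutant, replicate 1 was above replicate 2 in 21 of 27 subunit genes, with a median difference of 0.14, against 48.9% of all features and 52.0% of those 5330. By place in the complex this was 9 of 11 core, 6 of 9 base and 6 of 7 lid genes, and among the ATPases 3 of 6. The mutant replicates also differed in fat body markers, as given below, and the part of this in the subunit values was not tested. The mean of the 27 genes relative to their own wildtype mean was 0.09 and 0.03 on wildtype arrays 1_1 and 1_2 and -0.05 and -0.07 on 2_1 and 2_2. On the mutant arrays it was -0.91, -0.91, -1.02 and -1.06 in the same order. For any choice of a wildtype and a mutant replicate all 27 genes were lower, which follows from the lack of overlap between arrays given above. The medians of these choices ran from -0.83 to -0.97.

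**Figure D4:**
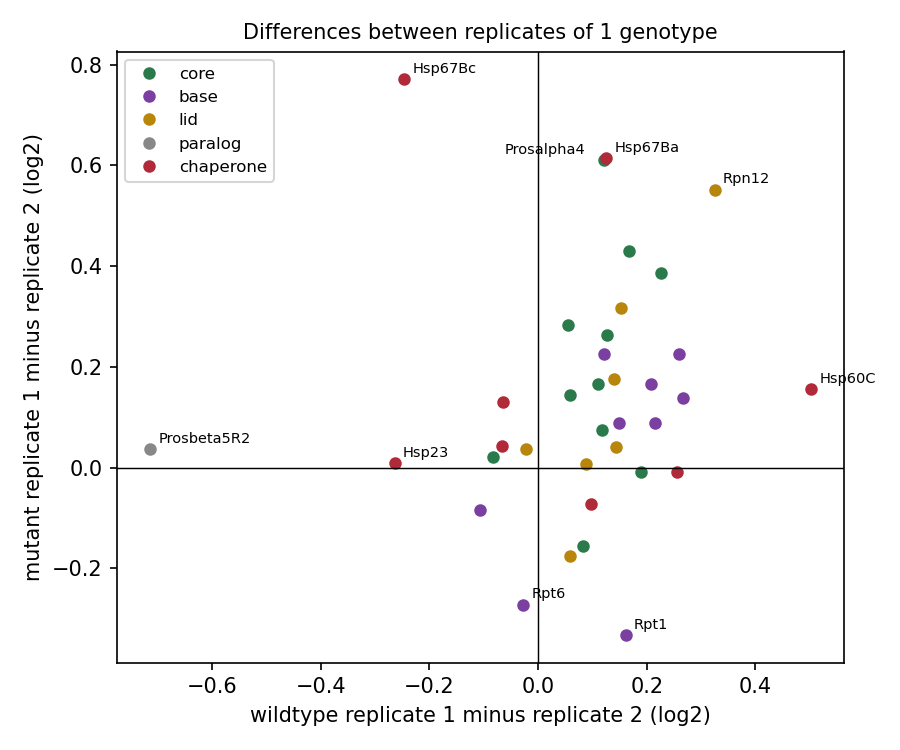
Replicate 1 minus replicate 2 in wildtype (x axis, log2) and in the mutant (y axis, log2) for the 36 genes, coloured by role. Most subunits lie in the upper right; in wildtype the values reach from -0.71 (Prosbeta5R2) to 0.50 (Hsp60C), and in the mutant the highest is 0.77 (Hsp67Bc).

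Other genes of the ubiquitin and proteasome system were taken from a list of 52. In the authors' list were 19 of them, beside 25.3% of protein-coding genes in RefSeq. Of these 19 genes 18 were lower and 1 higher in the mutant, where 49.6% of all listed genes were lower. Of the 19 genes 9 were called lower, 0 higher, and 10 were not called. Beside these, 4.46% of all features and 18.7% of listed genes were called lower. The 3 with the largest differences were Pomp, the chaperone that matures the core particle, which fell from 10.41 to 8.68 (log2 difference -1.73), Usp14, a deubiquitinase bound to the proteasome, which fell from 11.08 to 9.36 (-1.71), and Roc1a, the RING subunit of cullin ubiquitin ligases, which fell from 11.37 to 9.86 (-1.51). Further genes of the list, named after their values were seen, were Uch-L5, the deubiquitinase that docks on Rpn13, which fell by 1.30, the shuttle factor gene Rad23, which fell by 0.88, and maf-S, the partner of the transcription factor Cap'n'collar, which fell by 0.98. The gene that was higher was cnc, which encodes Cap'n'collar, a factor known to activate proteasome genes in flies. It read 8.77, 8.73, 9.46 and 9.59 in wildtype and 10.25, 10.07, 10.13 and 10.16 in the mutant (log2 difference 1.01, SE 0.29), and it was not called. Since being listed takes a 1.5-fold difference, these counts too rest on genes selected on their difference, and they come from the same fit, in which leaving out a mutant replicate ended nearly all calls.

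A list of 56 other chaperones and heat shock regulators gave 15 listed genes, 14 lower and 1 higher. Beside these stand the same 25.3% of RefSeq genes listed and 49.6% of listed genes lower. Of the 15 genes 9 were called lower, 0 higher and 6 were not called, beside the same 4.46% and 18.7%. As for the previous list, leaving out a mutant replicate ended nearly all calls of the fit (0 and 16 features called). The median log2 difference was -0.80, against -0.95 in the ubiquitin and proteasome list. The 3 with the largest differences were nudC, a co-chaperone of Hsp90, which fell from 11.71 to 10.57 (-1.14), Fkbp59, a prolyl isomerase that binds Hsp90, which fell by 1.05, and HIP-R, a co-chaperone of Hsp70, which fell by 1.05. Hop, which links Hsp70 to Hsp90, fell by 0.80, and the protein disulphide isomerase gene Pdi of the endoplasmic reticulum by 0.98, both named after their values were seen. The gene that was higher was DnaJ-60 (0.86, not called). Neither Hsf, the transcription factor of the heat shock response, nor Hsc70-4, the abundant constitutive Hsp70, was listed.

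The 5 named genes outside the members whose pattern over the 8 arrays was most like the mean of the subunit genes were fabp (Pearson r 0.9986), Sema2b (0.9985), neo (0.9981), CG11980 (0.9981) and CG32447 (0.998). Their log2 differences were -1.56, -1.58, -2.12, -0.78 and -2.82. Over 8 arrays that fall into 2 genotypes such values follow the difference between genotypes. The same measure for Hsp60C and Hsp67Ba against the subunit mean was 0.9965 and 0.9962. CG11980 is the immediate neighbour of Prosbeta3. Of the 54 immediate protein-coding neighbours of the 27 subunit genes, 18 were in the authors' list (33.3%, against 25.3% of protein-coding genes in RefSeq). Of those 18 neighbours 15 were lower in the mutant and 3 higher, against 49.6% lower among all listed genes. The 25.3% is taken over all protein-coding genes in RefSeq, whether or not the array measured them. Whether neighbouring genes differed together was not tested. The neighbour with the largest difference was Nepl3 beside Rpn11 (-2.18), followed by Smn beside Rpn12 (-1.49).

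**Figure D5:**
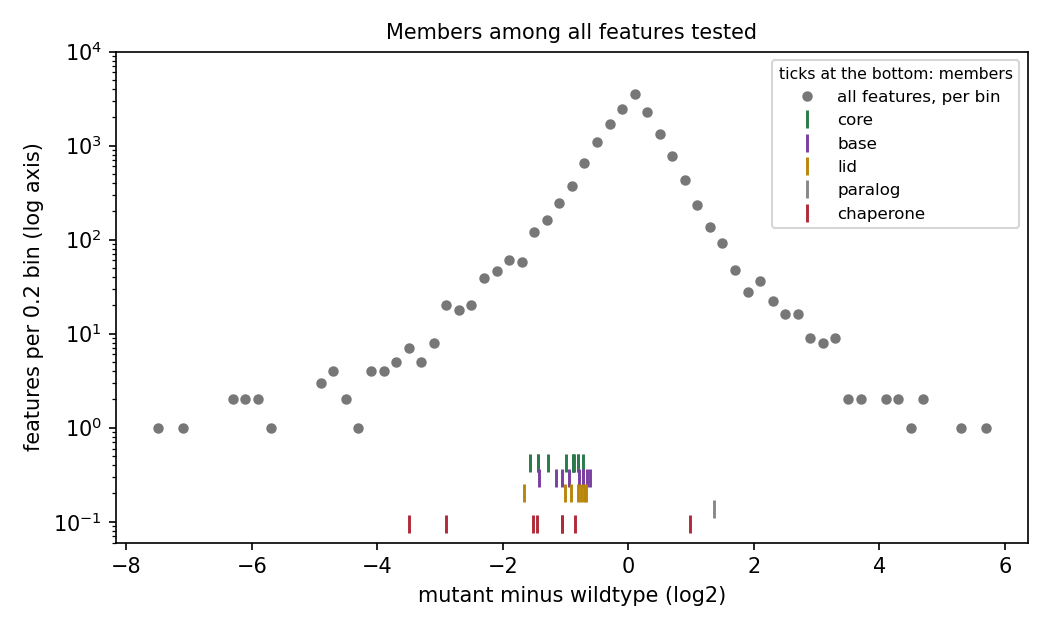
Number of features (y axis, log scale) in bins of 0.2 of the mutant minus wildtype log2 difference (x axis) over all 16108 features (grey points), with a tick at the bottom for each of the 36 genes by role. The subunit ticks stand together to the left of the peak, from -1.66 to -0.61, and the chaperone ticks are spread from -3.50 to 0.98.

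Markers of other tissues differed between the genotypes in the same samples. All 10 salivary gland markers were listed and lower, with a summed level of 17.59 to 17.72 on wildtype and 13.14 to 13.29 on mutant arrays. All 8 fat body markers were listed and lower (17.13 to 17.20 against 13.23 to 15.07). Each of the 8 was higher in mutant replicate 2 than in mutant replicate 1. The widest split was in Lsp1gamma, with 10.84 and 10.74 in mutant replicate 1 and 13.74 and 13.70 in mutant replicate 2. Lsp1beta and Lsp2 were split in the same way, and the other fat body markers less. Of 12 haemocyte markers 8 were listed and all 8 were higher (13.34 to 14.02 against 15.30 to 15.42), and of 9 muscle markers 5 were listed, 4 lower and 1 higher (12.78 to 12.85 against 11.90 to 12.01). Proteasome subunits are made in all of these cells, and the part of tissue composition in the differences of the 36 genes was not tested. Of 12 wing disc markers 5 were listed, 3 lower (Dll, ap and hth) and 2 higher in the mutant. The higher ones were rn by 1.47 (SE 0.61) and wg by 1.08 (SE 0.16), the latter called. The replicates of rn were apart in both genotypes. It read 10.24, 10.03, 8.89 and 8.56 in wildtype and 11.43, 11.37, 10.52 and 10.26 in the mutant. The summed level of the 5 markers was 14.65 to 14.90 in wildtype and 14.42 to 14.58 in the mutant. The other wing disc markers were not in the list and have no level here.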

How the data were processed

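The submitters' processing notes name RMA and Partek, with no versions; the deposited values are log2 levels per transcript and array, made by the authors before deposition. The authors' deposited table of transcripts gives a wildtype over mutant ratio of at least 1.5-fold in either direction and the gene symbols, and it was the only source of names. Genome build, probe design and slide layout were not given in the sources used here. Symbols were matched to RefSeq (assembly Release 6 plus ISO1 MT): 2541 listed genes by symbol, 1079 by synonym, 63 to several genes and 167 to none. For each listed gene the transcript with the highest mean was used, so that 16637 transcripts gave 16108 features. Arrays with the same first number in the title were averaged, leaving 2 replicates per genotype. The genotypes were compared with limma 3.58.1 (R 4.3.3, lmFit and eBayes) and Benjamini-Hochberg adjustment over all features, and called means an adjusted p under 0.05. The p-values rest on the spread between these samples only. The variance of each feature is drawn towards a value shared by all features (2.21 prior and 2 residual degrees of freedom). Scripts ran in Python 3.11.15 and figures in matplotlib 3.10.9. The fit was also run on simulated samples with independent noise. That setting has no shift common to a replicate, so nothing about the calls here is read from it.

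The members and lists were chosen with earlier results of these data known. The values of every chaperone member were given, and for core, base and lid the 2 subunits with the largest and the 2 with the smallest absolute difference; from the fixed lists, the 3 largest; and the 5 named genes most correlated with the mean of the subunits. Array signal, not read depth, limits precision here, and the small number of arrays limits it further. Levels were ranked between probes only to choose a transcript per gene and a set of brighter features, not to compare expression between genes. Alternatives were other ways to average the arrays, a block or random block on the first number, quantile normalization, median centring, the mean over transcripts, a filter on the dimmest 0.25 of transcripts, a trended robust fit and leaving out each replicate.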

Additional observations from a re-analysis of the deposited data

Results flagged for a closer look

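Of 74 groups of 4 arrays examined for an array far from the other 3, 4 held such an array. For independent arrays chance gives about 1 in 20. Arrays with the same first number are closely alike, so that rate need not hold here. BEAF-32 read 11.94 on wildtype array 1_2 and 10.09 to 10.28 on the other wildtype arrays. Among the members, Prosbeta6 read 12.84 on wildtype array 1_2, against 13.02 to 13.05 on the others. Rpn8 read 13.24 on wildtype array 1_1, against 13.05 to 13.08. The co-chaperone gene stv read 13.36 on wildtype array 2_1, against 13.23 to 13.25. In each of the 3 members the distance was smaller than the gap between the genotypes.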

How the results depend on the processing

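The difference of each of the 36 genes was recomputed under 13 alternatives. Of 468 values 468 kept their sign, and 4 moved by more than the spread between replicates. The size for the 27 subunits stayed between 0.441 and 1.93. Other ways to average or block the arrays and the trended robust fit leave the mean difference unchanged by construction. Leaving out a replicate could not reverse a sign, since no gene had overlapping arrays. The kept signs were thus largely fixed in advance, and nothing is read from them. The counts of calls depended strongly on how the arrays were combined. Features called were 1169 with arrays averaged by the first number, 12365 with the second number, 7626 with 8 separate arrays, 3327 when the first number was a random block, and 1886 with a trended robust fit; leaving out replicates gave 0 to 4856. Subunit genes called were 17, 27 under those 4 alternatives, and 0 to 25 without a replicate. Chaperone genes called were 7, and 8 under those 4 alternatives. The chaperone median (-1.26) was -1.22 after quantile normalization and -1.27 to -1.09 without a replicate.

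With the first number as a replicate block, 1772 features, 20 subunit genes and 8 chaperone genes were called. The numbers are shared, but 2 pairs do not show that they pair the samples; the replicate differences of the genotypes correlated at 0.31 over features. The fit had 2 residual degrees of freedom, and 1 with a block or a replicate left out. Genes under 1.5-fold carry no name, so subunits that differed less could not be described.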
